A study of Mus musculus with 6 samples.

Results

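The genes described here are 6 matrix metalloproteinases (Mmp8, Mmp9, Mmp12, Mmp13, Mmp14 and Mmp19), the related membrane protease Adam8, and the tissue inhibitors Timp1 and Timp2. They were chosen by name from a deposited expression table, and all 9 were found among its 23398 genes. The table covers bone marrow derived dendritic cells of mice, kept in DMEM with serum, penicillin and streptomycin, in 2 groups of 3 RNA sequencing libraries. The nanoparticle group was treated with Ca(OH)2 nanoparticles for 12 hours and the vehicle group with vehicle for the same time. No genetic change is named for either group, and strain, age, particle dose, growth factors and whether libraries came from separate animals or cultures are not given in the sources used here, so p-values measure the spread between these libraries, which may be technical.

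Matrix metalloproteinases (MMPs) are zinc-dependent enzymes that cut collagens, elastin, gelatin and other proteins of the extracellular matrix, as well as cytokines and cell surface proteins. Most are secreted as inactive proenzymes and some are anchored in the plasma membrane. ADAM proteases shed the outer parts of membrane proteins. TIMPs bind the active site of MMPs and block it, and TIMP2 also takes part in the activation of the MMP2 proenzyme by MMP14. Macrophages and dendritic cells use such enzymes to cross tissue barriers.

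The values carry no unit in the table and were treated as FPKM, fragments per kilobase of gene scaled to library size. The libraries held 17285142 to 21980171 reads, recovered from the FPKM values. Nanoparticle library 1 stood apart. Across genes, its correlation with nanoparticle libraries 2 and 3 was 0.9423 and 0.9282, against 0.9895 between those libraries and 0.9926 to 0.9938 between vehicle libraries. Calls that changed without it are given both ways for the genes named. Of 12 dendritic cell markers listed, some were abundant in the vehicle libraries, with Itgax at 442 to 456 FPKM and Cd74 at 3902 to 4264 FPKM. H2-Ab1, H2-Aa, Irf4 and Ciita had vehicle means of 1002, 766, 34.4 and 15.8 FPKM. Zbtb46, Cd209a, Clec10a, Irf8 and Ccr7 had low vehicle means, at 3.97, 5.69, 6.92, 8.68 and 2.29 FPKM. Flt3 was at 0.08 FPKM or less in every library. The macrophage markers Csf1r, Cd68 and C1qb were at 158 to 325 FPKM in vehicle, with Cd163 and Vsig4 under 0.5 FPKM in every library. These markers moved both ways with the treatment. Of 11 dendritic cell markers tested, 2 were called higher and 4 lower, among them Ccr7 (log2 change 5.11) and Cd209a (-2.70). Of 10 macrophage markers 3 were called higher and 4 lower, among them Adgre1 (1.37) and C1qb (-1.62). Genes also moved both ways outside these lists, with 17% of all genes tested called higher and 16.2% lower. Itgax, Cd74 and Csf1r were not called with all libraries. Without nanoparticle library 1, Itgax was called lower (log2 change -0.22, limma adjusted p = 0.01). Cd74 and Csf1r were then called higher (0.29 and 0.14, limma adjusted p = 0.012 and 0.031). The part of these markers in the results was not tested. In bulk samples such as these, fewer cells of a type and less RNA per cell cannot be told apart.

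Under the nanoparticles, Timp1 and Mmp14 rose, Mmp19, Mmp8 and Adam8 fell, and Mmp9, Mmp12, Mmp13 and Timp2 did not pass the test. Timp1 was 6.57-fold higher on the ratio of group means, Mmp14 was 3.65-fold higher, Mmp19 was 3.36-fold lower, Mmp8 was 1.88-fold lower and Adam8 was 1.42-fold lower. The test was limma on log2(FPKM + 1), over the 10682 genes that reached 1 FPKM in 3 or more libraries, and a gene was called when its Benjamini-Hochberg adjusted p was under 0.05. By this test 5 of the 9 genes were called, 2 higher and 3 lower, against 33.2% of all genes tested, 17% higher and 16.2% lower. With libraries scaled by their total reads, 6 of the 9 were called, 2 higher and 4 lower, against 44.2% of all genes tested, 10.4% higher and 33.8% lower. Groups did not overlap in the same 5 genes as in the main test, against 52.1% of all genes tested, 25.9% higher and 26.2% lower. Each of the 9 genes was above the filter on low values in every library. Their median log2 change was 0.02, and that of all genes tested was 0.00. A gene under 1 FPKM in every library of a group could pass the filter only by being higher in the other group. Among the genes named in these results, this held for Lcn2, Vcan, Csf3r and Hdc, low in vehicle. It also held for Cd209a and Adam23, low with nanoparticles.

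Promoter sequence is shown first for 5 of the 9 genes. Mmp13, Mmp12 and Mmp8 are neighbours on chromosome 9, of which Mmp8 alone passed the test with all libraries, and Timp1 and Mmp14 are the genes that rose. Each line gives 150 bases, 5′ to 3′, from RefSeq on GRCm38.p6, on the plus strand. It ends just before the RefSeq start or the gene start given below, whichever is further upstream. The line of Mmp12 ends 16 bases before its RefSeq start. The lines of Mmp8 and Mmp14 end at RefSeq starts that lie before the gene starts given below. Capitals mark letters of the AP-1 motif (TGANTCA, which reads the same on both strands) or of the PEA3 motif of Ets factors (AGGAAG or its complement CTTCCT). The marked matches do not overlap each other.
Mmp13, chr9:7272364-7272513: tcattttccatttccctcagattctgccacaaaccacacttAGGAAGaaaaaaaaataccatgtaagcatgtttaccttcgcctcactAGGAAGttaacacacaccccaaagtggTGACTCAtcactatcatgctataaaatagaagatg
Mmp12, chr9:7344231-7344380: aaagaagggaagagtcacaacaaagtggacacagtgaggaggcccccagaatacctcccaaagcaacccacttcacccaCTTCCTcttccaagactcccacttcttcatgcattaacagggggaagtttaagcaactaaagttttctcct
Mmp8, chr9:7558279-7558428: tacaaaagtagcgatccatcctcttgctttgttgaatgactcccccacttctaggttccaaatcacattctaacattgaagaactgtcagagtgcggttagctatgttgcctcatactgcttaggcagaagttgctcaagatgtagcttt
Timp1, chrX:20870016-20870165: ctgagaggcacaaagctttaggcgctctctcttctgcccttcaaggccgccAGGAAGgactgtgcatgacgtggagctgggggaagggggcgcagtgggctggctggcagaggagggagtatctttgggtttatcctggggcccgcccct
Mmp14, chr14:54431448-54431597: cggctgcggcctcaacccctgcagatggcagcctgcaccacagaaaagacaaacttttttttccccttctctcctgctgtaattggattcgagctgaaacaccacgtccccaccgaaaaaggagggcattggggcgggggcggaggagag

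Over the full 250 bases before each start that the RefSeq table holds, the AP-1 letters were found before the start of Mmp13, 35 to 29 bases ahead of it, and before a second RefSeq start of Mmp12, 44 to 38 bases ahead of it. Of all 32851 promoters in the table, 6.75% held this motif and 29.5% held the PEA3 motif. PEA3 letters were found 2 times before Mmp13 and Timp1 and 1 time before Mmp12, Mmp8 and Mmp14. Neither motif was found before Adam8 or Timp2. The table matched 7 of the 9 genes by symbol, and Mmp9 and Mmp19 had no entry. These are matches of letters, not measured binding.

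In vehicle cells the transcripts covered a wide range of levels per length, and no pair of genes overlapped in its 3 libraries. Mmp12 was the most abundant and ranked 18 among all 23398 genes by mean vehicle FPKM, followed by Mmp13 at rank 36, Adam8 at 95, Mmp8 at 147, Mmp19 at 316, Timp2 at 684, Mmp14 at 1118, Timp1 at 1698 and Mmp9 at 3823. Mmp12 and Mmp13 together gave 88.2% to 89.3% of the summed FPKM of the 6 MMPs in vehicle libraries and 90.1% to 92.8% in nanoparticle libraries. In the nanoparticle group the order was less separated. Mmp14, at 116 to 142 FPKM, overlapped Mmp8, at 129 to 133 FPKM, and Timp1, at 110 to 254 FPKM, overlapped Mmp8, Mmp14 and Adam8. The ranges of Mmp9, Mmp19 and Timp2 overlapped one another. Those of Mmp12 and Mmp13 also overlapped, though Mmp12 was the higher of the pair in each library. The member with the fewest reads in any library was Timp1, with 412 reads in vehicle library 1, where counting alone gives an error of 4.93%.

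**Figure D1:**
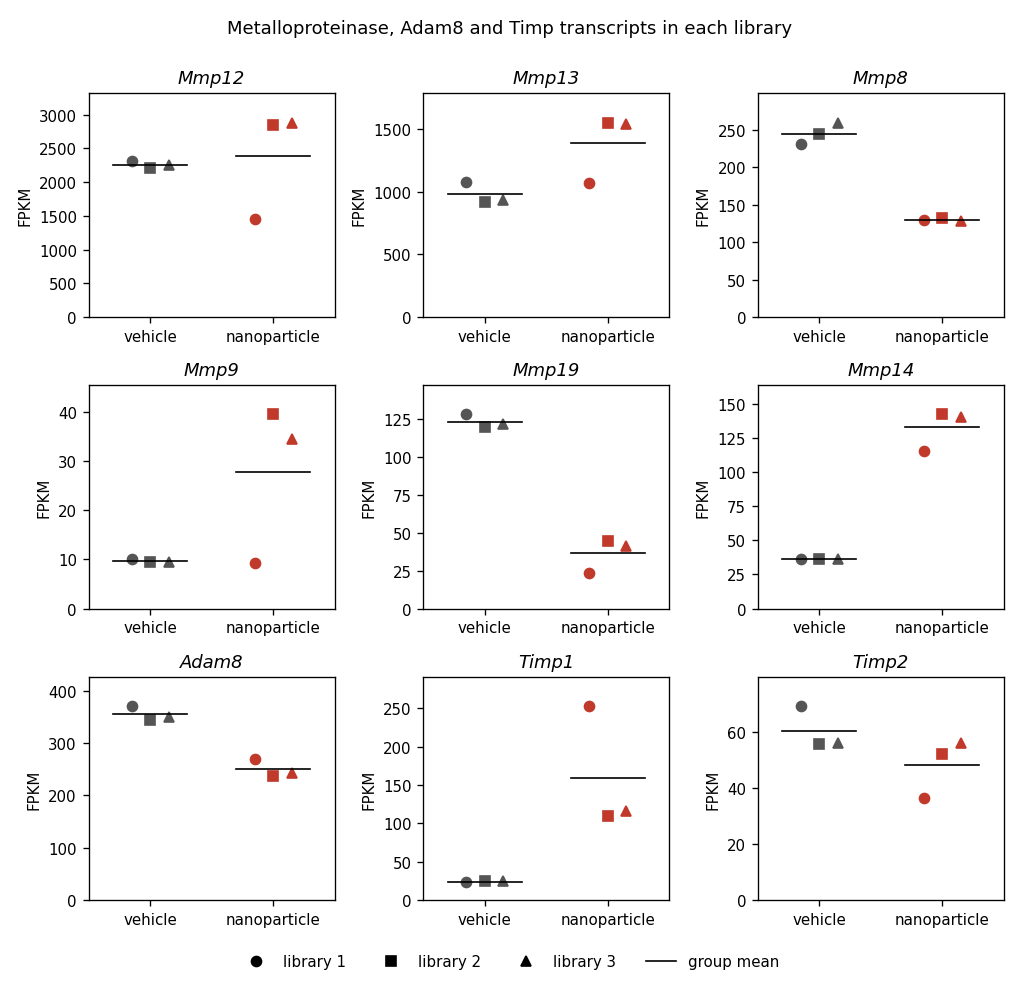
FPKM of each gene (vertical axes, from 0, a scale per panel) in 3 vehicle and 3 nanoparticle libraries. Symbols mark libraries 1 to 3 of each group and lines the group means. Mmp8, Mmp14, Mmp19, Adam8 and Timp1 have groups that do not overlap, and nanoparticle library 1 lies near the vehicle level for Mmp9, at 9.33 FPKM, and below it for Mmp12, at 1459 FPKM.

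Among the secreted enzymes, Mmp12 encodes macrophage elastase, which degrades elastin. Its gene, ENSMUSG00000049723, is at chr9:7344381-7369499 (plus strand, GRCm38, as for all genes here). Mmp12 was at 2308, 2216 and 2251 FPKM in vehicle libraries 1 to 3 and at 1459, 2844 and 2882 FPKM in nanoparticle libraries 1 to 3. Nanoparticle library 1 lay below every vehicle library and libraries 2 and 3 above every one, so the groups overlapped in range. The log2 change was 0.02 (95% interval -0.71 to 0.75, limma adjusted p = 0.97, SE 0.301). Without nanoparticle library 1 it was 0.34 (limma adjusted p = 0.0014, SE 0.052), and with libraries scaled by total reads it was -0.33 (limma adjusted p = 0.39).

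Mmp13 encodes collagenase-3, an enzyme that cleaves fibrillar collagen. Its gene, ENSMUSG00000050578, is at chr9:7272514-7283331 (plus strand). Mmp13 was at 1079.6, 919 and 935 FPKM in vehicle libraries 1 to 3 and at 1069, 1549.8 and 1536 FPKM in nanoparticle libraries 1 to 3. Nanoparticle library 1 lay within the vehicle range and libraries 2 and 3 above it. The log2 change was 0.48 (95% interval -0.01 to 0.98, limma adjusted p = 0.12, SE 0.206). It was 0.66 without nanoparticle library 1 (limma adjusted p = 0.00052, SE 0.08) and 0.14 with total read scaling (limma adjusted p = 0.58).

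Mmp8 encodes the collagenase best known from neutrophil granules. Its gene, ENSMUSG00000005800, is at chr9:7558456-7568485 (plus strand). Mmp8 was at 230.2, 244 and 259 FPKM in vehicle libraries 1 to 3 and at 129, 133 and 129 FPKM in nanoparticle libraries 1 to 3. All nanoparticle libraries lay below all vehicle libraries, and nanoparticle library 1 was level with the other libraries of its group. The means ± SD of the 3 libraries were 245 ± 14.5 and 130.0 ± 2.28 FPKM, and Mmp8 fell with a log2 difference of -0.90 (limma adjusted p = 0.0017, SE 0.112). The change was -0.90 without nanoparticle library 1 and -1.25 with total read scaling.

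Mmp8, Mmp12 and Mmp13 belong to a row of 10 Mmp genes that spans 427 kb of chromosome 9. These 3 genes held nearly all reads of the row. Mmp10 was at 0.67 to 2.74 FPKM and Mmp27 at 0.46 to 1.41 FPKM over the 6 libraries, and neither passed the test. Mmp1a, Mmp1b and Mmp3 were each at 2 reads or fewer in every library, which is under a floor of 3 reads. Mmp7 and Mmp20 were not analysed here. The Mmp13 to Mmp8 ratio, which does not depend on the scaling between libraries, was 4.69, 3.76 and 3.61 in vehicle libraries 1 to 3. It was 8.29, 11.7 and 11.9 in nanoparticle libraries 1 to 3, above every vehicle library. Mmp8 was called lower and Mmp13 was not, so this ratio restates the changes of the single genes.

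Mmp9 encodes gelatinase B, which degrades gelatin and basement membrane collagen. Its gene, ENSMUSG00000017737, is at chr2:164940780-164955850 (plus strand). Mmp9 was at 10.1, 9.41 and 9.43 FPKM in vehicle libraries 1 to 3 and at 9.33, 39.5 and 34.5 FPKM in nanoparticle libraries 1 to 3. Nanoparticle library 1 lay just below the vehicle libraries, while libraries 2 and 3 averaged 3.84 times the vehicle mean. The log2 change was 1.21 (95% interval -0.02 to 2.43, limma adjusted p = 0.12, SE 0.507), and without nanoparticle library 1 it was 1.83 (limma adjusted p = 6e-06, SE 0.077).

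Some neutrophil genes were also lowest in nanoparticle library 1 of its group, and others were not. S100a9 was at 0.352, 13.2 and 10.2 FPKM and Ngp at 0.0501, 4.30 and 3.23 FPKM in nanoparticle libraries 1 to 3, against 0.96 to 1.65 and 0.25 to 0.90 FPKM in vehicle. Csf3r was highest in library 1, at 4.90, 3.85 and 3.87 FPKM in nanoparticle libraries 1 to 3 against 0.52 to 0.70 FPKM in vehicle, and Cxcr2 was lower with nanoparticles, at 0.14 FPKM or less against 0.40 to 0.80 FPKM. The summed FPKM of 14 neutrophil markers was 35.8 to 40.5 in vehicle libraries and 56.0, 115 and 129 in nanoparticle libraries 1 to 3, most of it S100a8. Of these markers 8, among them Mpo, Elane and Ly6g, stayed under 0.5 FPKM in every library. Csf3r, under 1 FPKM in every vehicle library, passed the filter through the nanoparticle libraries alone. Of the 3 markers tested, S100a8 and Csf3r were called higher and S100a9 was not (log2 change 1.47, limma adjusted p = 0.25), against 17% of all genes tested called higher. All 3 were called higher without nanoparticle library 1, against 34.3% of all genes tested. S100a9 then changed by 2.54 on the log2 scale (limma adjusted p = 4e-05). The part of neutrophils in the Mmp9 values was not tested.

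Mmp19 encodes a secreted MMP that cleaves basement membrane proteins. Its gene, ENSMUSG00000025355, is at chr10:128790910-128800824 (plus strand). Mmp19 was at 128, 119.9 and 122 FPKM in vehicle libraries 1 to 3 and at 23.7, 44.7 and 41.6 FPKM in nanoparticle libraries 1 to 3. All nanoparticle libraries lay below all vehicle libraries, library 1 the farthest. The means ± SD (n = 3) were 123 ± 4.33 and 36.7 ± 11.3 FPKM, and Mmp19 fell with a log2 difference of -1.77 (limma adjusted p = 0.0025, SE 0.243). It was -1.49 without nanoparticle library 1. Tmem198b, which overlaps Mmp19 on the other strand, was at 1.06 to 2.80 FPKM.

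Mmp14 encodes the membrane-anchored MMP14 (MT1-MMP), which cleaves collagen at the cell surface and activates the MMP2 proenzyme. Its gene, ENSMUSG00000000957, is at chr14:54431612-54445364 (plus strand). Mmp14 was at 36.6, 36.2 and 36.2 FPKM in vehicle libraries 1 to 3 and at 116, 142 and 140.2 FPKM in nanoparticle libraries 1 to 3. The vehicle libraries were nearly level and every nanoparticle library was above them. The means ± SD (n = 3) were 36.3 ± 0.219 and 133 ± 14.9 FPKM, and Mmp14 rose with a log2 difference of 1.83 (limma adjusted p = 0.00019, SE 0.121), the smallest adjusted p of the 9 genes. It was 1.93 without nanoparticle library 1 and 1.5 with total read scaling.

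Adam8 encodes a membrane protease of leukocytes that sheds cell surface proteins. Its gene, ENSMUSG00000025473, is at chr7:139978932-139992562 (minus strand). Adam8 was at 371, 344 and 349 FPKM in vehicle libraries 1 to 3 and at 270.3, 236 and 243 FPKM in nanoparticle libraries 1 to 3. All nanoparticle libraries lay below all vehicle libraries. The means ± SD (n = 3) were 355 ± 14.5 and 249.9 ± 17.9 FPKM, and Adam8 fell with a log2 difference of -0.51 (limma adjusted p = 0.022, SE 0.124). The adjusted p was 0.056 to 0.11 when any library other than nanoparticle library 1 was left out and 0.09 with the replicate number as a block, so this call is the least secure of the 5.

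Of the inhibitors, Timp1 encodes a secreted inhibitor of most soluble MMPs that also binds the MMP9 proenzyme. Its gene, ENSMUSG00000001131, is at chrX:20870166-20874735 (plus strand). Timp1 was at 23.3, 24.9 and 24.9 FPKM in vehicle libraries 1 to 3 and at 254, 109.7 and 116 FPKM in nanoparticle libraries 1 to 3. Every nanoparticle library was above every vehicle library, and library 1 held 10.4 times the vehicle mean, against 4.64 times for the mean of libraries 2 and 3. The means ± SD (n = 3) were 24.3 ± 0.915 and 159.9 ± 81.2 FPKM, and Timp1 rose with a log2 difference of 2.56 (limma adjusted p = 0.0018, SE 0.322). It was 2.17 without nanoparticle library 1 (limma adjusted p = 1.1e-06). Syn1 overlaps Timp1 on the opposite strand and was at 12.9 to 13.2 FPKM in vehicle and 3.92 to 4.71 FPKM in nanoparticle libraries. Whether counting used the strand is not given in the sources used here.

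Timp2 encodes the inhibitor that bridges MMP14 and the MMP2 proenzyme on the cell surface. Its gene, ENSMUSG00000017466, is at chr11:118301069-118355740 (minus strand). Timp2 was at 69.5, 55.8 and 56.3 FPKM in vehicle libraries 1 to 3 and at 36.7, 52.4 and 56.1 FPKM in nanoparticle libraries 1 to 3. The groups overlapped, with nanoparticle library 1 the lowest and vehicle library 1 the highest of the 6. The log2 change was -0.33 (95% interval -0.80 to 0.13, limma adjusted p = 0.23, SE 0.192). With total read scaling it was -0.67 (limma adjusted p = 0.023), against a median of -0.28 for all genes under that scaling.

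**Figure D2:**
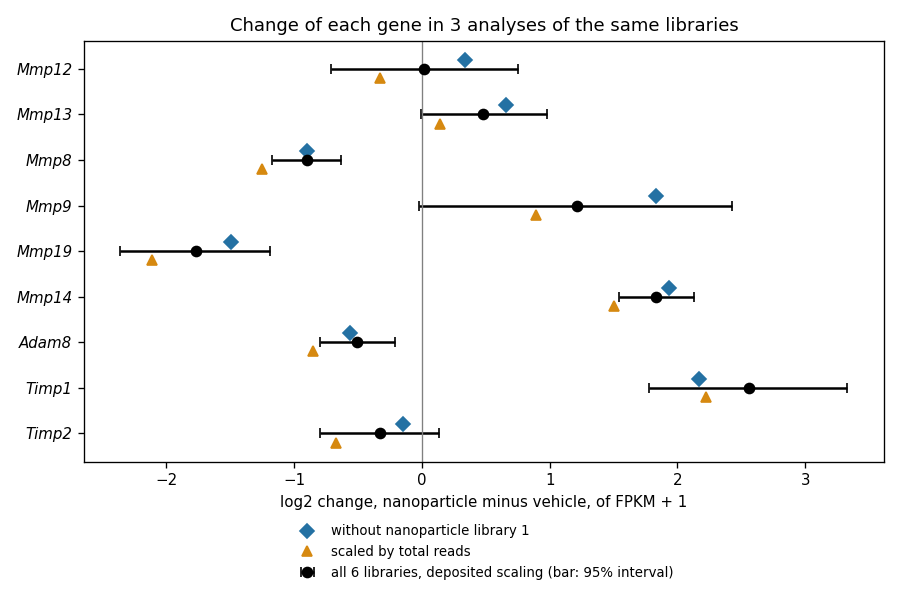
Log2 change of FPKM + 1, nanoparticle minus vehicle (horizontal axis), for each gene. Circles with 95% intervals use all 6 libraries as deposited, diamonds leave out nanoparticle library 1 and triangles use total read scaling; Mmp12 is at 0.02, 0.34 and -0.33 in these 3 analyses, while Timp1, Mmp14, Mmp19, Mmp8 and Adam8 keep their sides of 0.

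Nanoparticle library 1 differed from the other libraries of its group in an uneven way among these genes. It lay more than 1.5-fold (of FPKM + 1) below both others for Mmp9, Mmp12 and Mmp19, and more than 1.5-fold above both for Timp1. Of all genes tested, 14.8% were below and 10.7% above by this measure. Without this library, 8 of the 9 genes were called, 5 higher and 3 lower, with Timp2 the exception, against 64.8% of all genes tested, 34.3% higher and 30.5% lower. With the replicate number as a block, 4 of the 9 were called, 2 higher and 2 lower, against 26.1% of all genes tested, 13.6% higher and 12.5% lower.

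Ratios between transcripts within a library carry no scaling between libraries. The summed FPKM of the 6 MMPs was 40.9, 44.0 and 44.5 times that of the 2 TIMPs in vehicle libraries 1 to 3. It was 9.67, 29.3 and 27.6 times in nanoparticle libraries 1 to 3, below every vehicle library. The MMP sum itself was 3545 to 3792 FPKM in vehicle and 2806, 4753 and 4763 FPKM with nanoparticles, on both sides of the vehicle range. The TIMP sum was 80.7 to 92.8 FPKM in vehicle and 290.3, 162 and 172 FPKM with nanoparticles, above it in every library. The ratio counts transcripts and is not a measure of enzyme activity.

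The make-up of the inhibitor pair also differed between the groups. Each pair given here holds a gene that was called higher and another that was not. These ratios restate the changes of the single genes and are no further evidence. The Timp1 to Timp2 ratio was 0.335, 0.446 and 0.442 in vehicle libraries 1 to 3, where Timp2 was the more abundant. It was 6.92, 2.09 and 2.07 in nanoparticle libraries 1 to 3, where Timp1 was. The Mmp14 to Timp2 ratio was 0.526 to 0.649 in vehicle and 2.5 to 3.15 with nanoparticles. The Mmp14 to Mmp19 ratio was 0.285 to 0.302 in vehicle and 3.18 to 4.87 with nanoparticles, so the membrane-anchored enzyme went from the less to the more abundant of this pair. The Mmp9 to Timp1 ratio was 0.378 to 0.434 in vehicle and 0.0368, 0.360 and 0.297 in nanoparticle libraries 1 to 3. Each of these was below every vehicle library, library 1 by far the most.

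**Figure D3:**
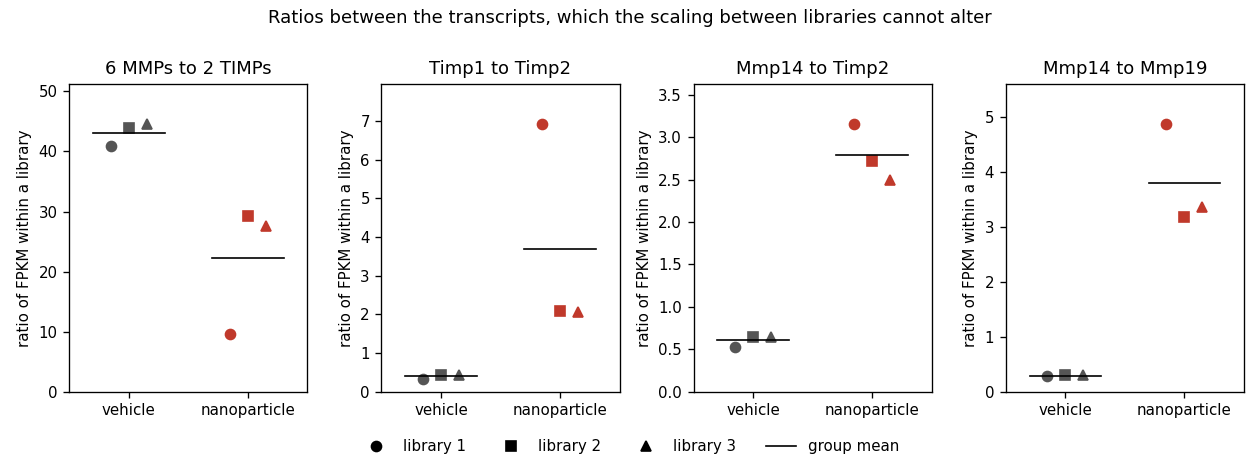
Ratios of FPKM within each library (vertical axes, from 0) for the sum of 6 MMPs over 2 TIMPs, Timp1 over Timp2, Mmp14 over Timp2 and Mmp14 over Mmp19, in vehicle and nanoparticle libraries. Symbols mark libraries 1 to 3 and lines group means. The groups are apart in each panel, which follows from the changes of the single genes. Nanoparticle library 1 is farthest from vehicle, at 9.67, 6.92, 3.15 and 4.87.

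Other Mmp genes were mostly near the limit of detection. Of 17 listed for comparison, 14 were in the table and 4 passed the filter on low values, of which 2 rose and 0 fell, against 17% higher and 16.2% lower of all genes tested. Their median log2 change was 0.95, against 0.00 for all genes tested. Mmp25, a membrane-anchored MMP of leukocytes, was at 0.89 to 1.52 FPKM in vehicle and at 16.6, 13.2 and 10.6 FPKM in nanoparticle libraries 1 to 3, a log2 difference of 2.70 (limma adjusted p = 0.00023, SE 0.186). Mmp2, whose proenzyme MMP14 activates, was at 3.96 to 5.58 FPKM in vehicle libraries and at 13.5, 15.1 and 15.9 FPKM in nanoparticle libraries 1 to 3, a log2 difference of 1.44 (limma adjusted p = 0.00067, SE 0.137). In both genes every nanoparticle library was above every vehicle library. Of the other inhibitors, Timp3 was at 6 reads or fewer and Timp4 at 4 reads or fewer in every library. Reck, a membrane-anchored MMP inhibitor, was at 0.0897 to 0.190 FPKM. Cst3, which inhibits cathepsins rather than MMPs, had means ± SD (n = 3) of 1202 ± 92.8 FPKM in the vehicle group and 1308 ± 389 FPKM in the other, and was not called (log2 change 0.08, limma adjusted p = 0.85). Without nanoparticle library 1 Mmp27 (log2 change -0.37, limma adjusted p = 0.046) and Cst3 (0.35, limma adjusted p = 0.008) were called.

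Of 10 other ADAM, ADAMTS and related genes tested, 3 rose and 3 fell, against 17% higher and 16.2% lower of all genes tested, with a median log2 change of -0.23. Adam10 and Adam17 encode the main sheddases of many cell surface proteins. Mean ± SD (n = 3) of Adam10 was 30.2 ± 1.52 FPKM in vehicle and 14.0 ± 1.5 FPKM in nanoparticle libraries, a fall, and that of Adam17 was 18.4 ± 0.704 and 31.6 ± 6.52 FPKM, a rise. Their log2 changes were -1.06 (limma adjusted p = 0.00098) and 0.73 (limma adjusted p = 0.018), the latter 0.40 with total read scaling (limma adjusted p = 0.083). Rhbdf2, which encodes the iRhom2 cofactor of ADAM17, rose (log2 change 1.11, limma adjusted p = 0.00052), with means of 11.8 and 26.7 FPKM. Adamts10 fell by 1.26 on the log2 scale, with means of 5.12 FPKM in vehicle and 1.56 FPKM in nanoparticle libraries. Adam23 fell by 1.24, with means of 2.17 and 0.357 FPKM. At such low values the log2 change of FPKM + 1 is smaller than that of FPKM. Adam9 (log2 change -0.22) and Adam15 (-0.45) were not called. Both were called lower without nanoparticle library 1 (-0.21 and -0.25, limma adjusted p = 0.032 and 0.02) and with total read scaling (-0.55 and -0.79, limma adjusted p = 0.0047 and 0.013). Adam17 was named after its values were seen.

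Genes whose products activate, bind or anchor MMPs numbered 13 tested, of which 2 were called higher, 2 lower and 9 not, shares near the 17% and 16.2% of all genes tested, with a median log2 change of -0.01. Lcn2, whose protein forms a complex with MMP9, rose from a mean of 0.234 FPKM to one of 50.4 FPKM, a log2 difference of 5.38 (limma adjusted p = 5.8e-06, SE 0.108). Lcn2 was under 1 FPKM in every vehicle library and passed the filter through the nanoparticle libraries alone. It was at 52.3 FPKM in nanoparticle library 1, where Mmp9 stayed at vehicle level. Bsg, which encodes the MMP inducer CD147, rose (log2 change 0.59, limma adjusted p = 0.0075), but was not called with total read scaling (0.25, limma adjusted p = 0.095). Plau, which encodes the urokinase that starts the plasmin cascade, fell (log2 change -1.60, limma adjusted p = 0.043) from 276 to 304 FPKM in vehicle to 41.8, 136 and 148 FPKM in nanoparticle libraries 1 to 3, and the change was -1.02 without library 1. Tspan14, a tetraspanin that binds ADAM10, fell (log2 change -1.54, limma adjusted p = 0.04, and -0.99 without that library). The urokinase receptor gene Plaur (log2 change 0.61, limma adjusted p = 0.079) and Cd44 (0.07, limma adjusted p = 0.76), which encodes a surface anchor of MMP9, were not called with all libraries. Without nanoparticle library 1, 5 of the 13 were called higher and 4 lower, Plaur (0.83) and Cd44 (0.21) among the former. The shares of all genes tested were then 34.3% higher and 30.5% lower.

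Other matrix-degrading proteases, mostly lysosomal cathepsins, had 3 higher and 0 lower of 10 tested, against 17% and 16.2% of all genes tested. The median log2 change was 0.38 across the list. With total read scaling 2 of the 10 were higher and 1 lower, against 10.4% and 33.8% of all genes tested. Ctsk, which encodes the collagen-degrading cathepsin K, rose by 1.40 on the log2 scale (limma adjusted p = 0.00035), with means ± SD (n = 3) of 25.0 ± 1.07 and 67.8 ± 6.07 FPKM. Ctsz, which encodes cathepsin Z, rose by 1.30 (limma adjusted p = 0.0013), with means ± SD (n = 3) of 987 ± 17.3 and 2438 ± 112 FPKM. Ctsl also rose (log2 change 0.48, limma adjusted p = 0.048) but was not called with total read scaling (0.13, limma adjusted p = 0.49). Without nanoparticle library 1, 6 of the 10 were called higher and 2 lower, against 34.3% and 30.5% of all genes tested. Ctsd (0.64) and Ctss (0.65) were among the former and were not called with all libraries (0.36 and 0.58, limma adjusted p = 0.37 and 0.056). Of 6 matrix and matrix-associated genes tested, 1 rose and 2 fell with all libraries, against 17% and 16.2% of all genes tested, with a median log2 change of -0.37. Fn1, which encodes fibronectin, was at 39.5 to 40.2 FPKM in vehicle and at 2.17, 8.99 and 8.41 FPKM in nanoparticle libraries 1 to 3 (log2 change -2.61, limma adjusted p = 0.0053). Tnc also fell (log2 change -0.94), and Vcan, which encodes versican, rose (log2 change 1.69, limma adjusted p = 0.0027), with means of 0.829 and 5.08 FPKM. Vcan passed the filter through the nanoparticle libraries alone. Spp1 (log2 change -0.46) and Thbs1 (0.73) were not called, and Thbs1 was at -0.09 without nanoparticle library 1.

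Transcription factor genes known to act on MMP promoters had 8 higher and 2 lower of 17 tested, against 17% and 16.2% of all genes tested, with a median log2 change of 0.74. Among the AP-1 subunits, Junb was at 77.1 to 82.4 FPKM in vehicle and 226 to 246 FPKM in nanoparticle libraries and rose by 1.55 on the log2 scale (limma adjusted p = 0.00023). Fos, named after its values were seen, was at 14.0 to 18.3 FPKM and 7.52 to 7.92 FPKM and fell by 0.94 (limma adjusted p = 0.0019). Jun (log2 change -0.18) and Jund (-0.02) were not called. With nanoparticle library 1 left out, Jun was called lower (-0.24, limma adjusted p = 0.026) and Jund higher (0.45, limma adjusted p = 0.0026), and with total read scaling Jun was called lower (-0.51, limma adjusted p = 0.014). The NF-κB subunit genes Nfkb2 (log2 change 2.70, limma adjusted p = 0.00014) and Relb (2.03, limma adjusted p = 0.00027) rose, and the Ets factor gene Etv5, of the group that binds the PEA3 motif, fell by 1.52 (limma adjusted p = 0.00032). Another Ets factor gene, Ets2, rose (log2 change 0.93, limma adjusted p = 0.0038). Over the lists of other Mmp, inhibitor, ADAM, activator, protease, matrix and factor genes, 19 of the 61 tested were higher and 9 lower, against 17% and 16.2% of all genes tested, with a median log2 change of 0.13. The split was 16 higher and 18 lower with total read scaling, under which 10.4% of all genes were higher and 33.8% lower. It was 28 higher and 19 lower without nanoparticle library 1, where the shares of all genes were 34.3% and 30.5%.

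**Figure D4:**
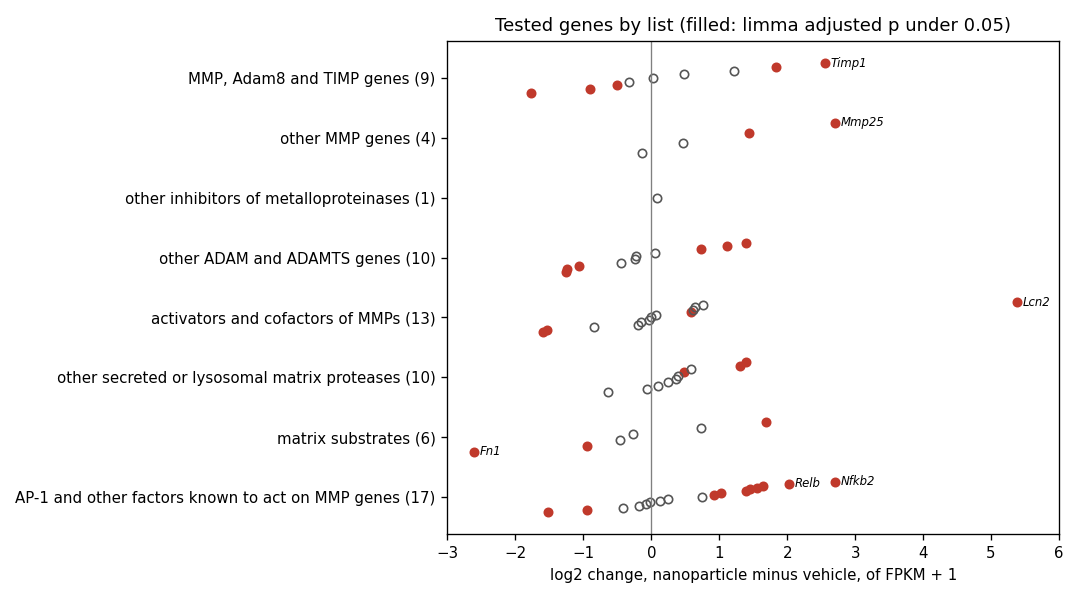
Log2 change of FPKM + 1, nanoparticle minus vehicle (horizontal axis), of each tested gene, by list (rows, with the number tested). Filled points passed limma's adjusted p under 0.05 and open points did not; the rows hold genes on both sides of 0, from Fn1 at -2.61 to Lcn2 at 5.38, except the inhibitor row with its single gene Cst3 at 0.08.

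The gene outside this set with the most similar pattern was sought for each of the 9 genes, by Pearson correlation of log2(FPKM + 1) over the 6 libraries among 3931 genes with a mean of at least 10 FPKM. The closest were Aldh9a1 for Mmp8, Rrs1 for Mmp9, Arl6ip5 for Mmp12, Gm17749 for Mmp13, Edem2 for Mmp14, Mrc1 for Mmp19, Rassf8 for Adam8, Slfn8 for Timp1 and Pdgfb for Timp2, with r of 0.9956 to 0.9996. As the 6 libraries fall into 2 groups and 1 outlying library, such values are common, and 33 genes (for Timp2) to 598 genes (for Mmp14) had r over 0.95. Mrc1, the mannose receptor gene, was at 51.8 to 62.8 FPKM in vehicle and 3.10, 10.6 and 9.57 FPKM in nanoparticle libraries 1 to 3, and Slfn8 at 2.31 to 2.42 FPKM and 69.7, 23.4 and 23.3 FPKM.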

How the data were processed

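The authors deposited 2 tables of 1 value per gene and library, with identical values. No header names their unit, and they were treated as deposited FPKM because 95.8% to 96.1% of values above 0, times the GENCODE M21 exon length and 1 scale per library, were whole numbers of reads (within 0.01). The library scales were not proportional to read totals. Per the submitters' processing notes CASAVA, STAR 2.5, HTSeq, edgeR 3.16.5, DESeq2, mm10 and hg19 were used, with no role given. Positions are those of GENCODE M21 (GRCm38, the assembly of mm10).

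Total RNA (1 µg per library) was used, per the labels' protocols. Samples were grouped by title. limma 3.58.1 in R 4.3.3 was fitted to log2(FPKM + 1) of genes that reached 1 FPKM in 3 or more libraries. Group was the single term, and eBayes was used with trend. The fit was also run on simulated data. These held a single spread setting for all genes and no outlying library, so they cannot show how the test behaves here. Read totals give counting error only, since no molecular identifiers are named and PCR copies count as reads. The 9 genes and the lists were chosen with earlier results of these data known. The rule for naming took all 9 genes and the most correlated gene of each of the 9. Per list it took up to 4 called genes with the smallest adjusted p and up to 2 uncalled genes with the highest mean. Other genes were named outside this rule, among them Adam17, Fos, Ets2, Adgre1, Ngp, Cxcr2, Ocstamp, Itgb3, Pdgfrb and Dcn. Alternatives changed the pseudocount, filter, scaling, trend, moderation, block, test and libraries; those for the comparison lists were chosen after seeing the data.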

Additional observations from a re-analysis of the deposited data

How the results depend on the processing

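Timp1, Mmp14, Mmp19 and Mmp8 kept their direction and stayed past the threshold in all 15 alternatives, with log2 changes of 2.10 to 2.77, 1.37 to 1.93, -2.24 to -1.49 and -1.37 to -0.86. Adam8 kept its direction in all of them and lost its call in 6. Mmp12 was at -0.45 with equal sums of FPKM, -0.33 with total read scaling and -0.33 with limma-voom on recovered reads, and without 1 library it ran from -0.15 to 0.34; the cause was not tested. Timp2 was called lower in those 3 rescaled analyses, at -0.80 to -0.67, and total read scaling itself moved the median of all genes from 0.00 to -0.28. The genes past the threshold were 3550 (1817 higher, 1733 lower), 4719 with total read scaling (1108 higher, 3611 lower) and 2141 to 6923 without 1 library. In the same leave-one-out analyses, 4 to 8 of the 9 genes and 21 to 47 of 61 comparison genes were called, the highest without nanoparticle library 1. Without 1 library the log2 difference of the MMP to TIMP ratio, -1.12 with all, was -1.40 to -0.60, and without Mmp12 it was -0.96.

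With the replicate number as a block, 2785 genes, 4 of the 9 genes and 25 comparison genes were called, and Adam8 was not. Whether libraries of the same number were paired is not given in the sources used here. Their deviations from the group means correlated at 0.065, 0.113 and -0.058. Vehicle libraries 1 and 2 correlated best with their own number, and vehicle library 3 did not. With 3 libraries per group and nanoparticle library 1 far from libraries 2 and 3, these values cannot settle whether a pairing existed. The block is therefore given as a check and not as the design. Depth limits the Mmp and Timp genes at 6 reads or fewer, for which no change could be detected.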

Other observations

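Osteoclasts, cells of the same myeloid lineage, also use MMPs, and the libraries held several transcripts known from them. Atp6v0d2 was at 282 to 286 FPKM in vehicle libraries and 232 to 251 FPKM in nanoparticle libraries, and Dcstamp at 157 to 168 and 120.4 to 202 FPKM, and neither was called by limma with all libraries. Without nanoparticle library 1 Atp6v0d2 was called lower (log2 change -0.20, limma adjusted p = 0.0092) and Dcstamp higher (0.26, limma adjusted p = 0.011), and Atp6v0d2 was called lower with total read scaling (-0.57, limma adjusted p = 0.0066). Acp5 rose (log2 change 1.65, limma adjusted p = 0.0017), with means ± SD (n = 3) of 29.9 ± 2.74 and 97.7 ± 27.1 FPKM, as did Ctsk. Ocstamp was at 52.7 to 54.4 FPKM in vehicle and 4.57, 30.4 and 28.9 FPKM in nanoparticle libraries 1 to 3, and was not called (log2 change -1.65, limma adjusted p = 0.1). It was called lower without library 1 (-0.83) and with total read scaling (-1.98). Itgb3 (-0.15) was called lower only without library 1 (-0.44). Of 6 such genes tested, 2 rose and 0 fell, against 17% and 16.2% of all genes tested, with a median log2 change of -0.06. Without library 1, 3 rose and 3 fell, against 34.3% and 30.5%. The defining genes Calcr and Oscar stayed under 0.5 FPKM in every library. Fibroblast and stromal markers, another known source of MMPs and TIMPs, summed to 2.11 to 2.98 FPKM in vehicle and 3.44 to 6.27 FPKM in nanoparticle libraries, with 7 of 11, among them Col1a1, Col1a2 and Lum, under 0.5 FPKM or not listed in every library. In the same list Pdgfrb was at 0.055 FPKM or less in vehicle and 0.83 to 1.29 FPKM in nanoparticle libraries, and Dcn at 0.016 FPKM or less and 2.39, 0.31 and 0.089 FPKM in nanoparticle libraries 1 to 3. Mast cell and basophil markers summed to 3.93 to 6.12 FPKM in vehicle and 10.3 to 26.1 FPKM in nanoparticle libraries, most of the latter from Hdc, which rose (log2 change 3.10, limma adjusted p = 0.0035). Hdc passed the filter through the nanoparticle libraries alone. Without Hdc the sum was 3.73 to 5.78 FPKM in vehicle and 1.99 to 4.11 FPKM in nanoparticle libraries. Of the other genes of this list tested, Gata2 fell (log2 change -0.76, limma adjusted p = 0.019), and Kit (-0.31) and Cpa3 (0.25) were not called, Kit being called lower without nanoparticle library 1 (-0.40) and with total read scaling (-0.48).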
